A study of Mus musculus with 4 samples.

Results

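The genes described here are 9 members of the mouse PR domain family, Prdm1, Prdm2, Prdm4, Prdm6, Prdm8, Prdm9, Prdm10, Prdm16 and Mecom, and the measurement is where peaks of a PRDM6 ChIP were called on or near them. A gene counted as having a peak if the deposited annotation assigned at least 1 PRDM6 peak to its symbol. By this rule 4 of the 9 genes had a peak, and together they held 18 of the 13977 peaks, which were assigned to 5243 gene symbols in all. Mecom had 9 peaks, Prdm1 had 4, Prdm6 had 4 and Prdm9 had 1. No peak was assigned to Prdm2, Prdm4, Prdm8, Prdm10 or Prdm16. The 3 strongest of the 18 peaks each lay within an exon of Prdm6 itself, the gene that encodes the precipitated protein. The cells also carried a viral copy of the tagged gene, and its part in these 3 peaks was not tested.

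PR domain proteins carry an amino-terminal PR domain, which is related to the SET domain of histone methyltransferases, and most of them bind DNA through an array of zinc fingers. Some members methylate histones themselves, whereas others act by recruiting histone methyltransferases, deacetylases or other co-factors. Members of the family control cell identity in many tissues, and PRDM6 is selectively expressed in smooth muscle cells (SMCs).

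Chromatin immunoprecipitation sequencing (ChIP-seq) was performed on cultured primary mouse outflow tract SMCs, the muscle cells of the large arteries that leave the heart. All 4 samples came from cells infected with a lentivirus that overexpressed FLAG-tagged PRDM6. The PRDM6 ChIP group (n = 2) was precipitated with an antibody against the FLAG tag, and the Input group (n = 2) was chromatin that was not precipitated. The study's methods take outflow tract SMCs from Prdm6 fl/fl embryos of late gestation, and the labels name no Cre for these cells. There was no sample without the tagged protein and none precipitated with a nonimmune antibody. The peaks are therefore those called in precipitates of an overexpressed, tagged protein, and the endogenous one was not measured.

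Each peak has a −log10 p-value in each PRDM6 ChIP replicate, computed by the authors against the matching Input, and the smaller of the pair is the value of the matched peak. It also has a score for the irreproducible discovery rate (IDR), a measure of how well a peak's rank was repeated between replicates. Scores of 540 and 830 correspond to global IDR values of 0.05 and 0.01, and 48 was the lowest score in the list. Which PRDM6 ChIP sample gave which column is not known, so the replicates are called first-listed and second-listed. The study describes the replicates both as independent and as drawn from a single sample, so their spread may be technical. The processed files held 1 list of peaks and no value of the Input group, so no difference between groups could be tested, and counts are given beside the same share of all peaks or genes.

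Depth was recovered from the p-values. The genome-wide background was 2.61 fragments in the first-listed and 2.39 in the second-listed replicate, and the median peak height on that background was 14 and 13 fragments. A member peak of median strength therefore rested on few fragments. A gene without a peak was one to which no peak of the list was assigned, and the part of depth in this was not tested.

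The share of members with a peak has to be read against gene length, since long genes had peaks more often. Of 21755 protein-coding genes, 20.1% had an assigned peak. The share was 10.7% for genes shorter than 30 kb, 46.5% for genes of 80 to 120 kb and 64.6% for genes longer than 300 kb. The 3 short members were Prdm9 (21.3 kb), Prdm8 (21.8 kb) and Prdm4 (25.2 kb), and 1 of them, Prdm9, had a peak. The 4 members of 80 to 120 kb were Prdm1 (91.3 kb), Prdm10 (101 kb), Prdm2 (106 kb) and Prdm6 (112 kb), and Prdm1 and Prdm6 had peaks. Of the 2 longest, Mecom (597 kb) had peaks and Prdm16 (321 kb) had none. With at most 4 members a class, 1 gene decides each share, and the single peak of Prdm9 was assigned to it over a closer start of another gene.

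**Figure D1:**
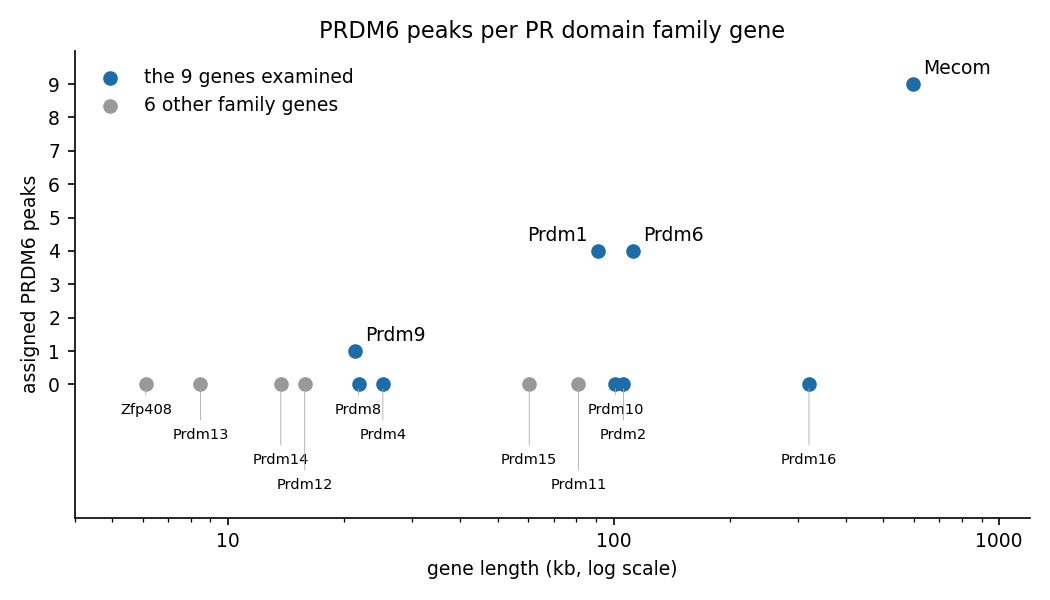
Number of assigned PRDM6 peaks (vertical axis) against gene length in kb (horizontal axis, log scale) for the 9 genes described (blue) and 6 other genes of the PR domain family (grey). Mecom, the longest, had 9 peaks, Prdm1 and Prdm6 had 4 each, Prdm9 had 1, and the other 11 genes lie at 0.

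The strength of the 18 peaks as a whole was close to that of the list. Their median −log10 p was 5.77 (range, 3.21 to 14.2), and the median of all peaks was 5.53. The lowest score of the list, 48, was found in 9 of the 18 peaks (50%) and in 41.4% of all peaks. A global IDR of at most 0.05 was reached by 3 of the 18, all of them in Prdm6, whereas 3.33% of all peaks reached it. Without these 3, the median of the other 15 was 5.10 and the highest value was 10.9. The first-listed replicate had the higher value in 13 of the 18 peaks and in 52.1% of all peaks, and the second-listed replicate had it in 5 of the 18.

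**Figure D2:**
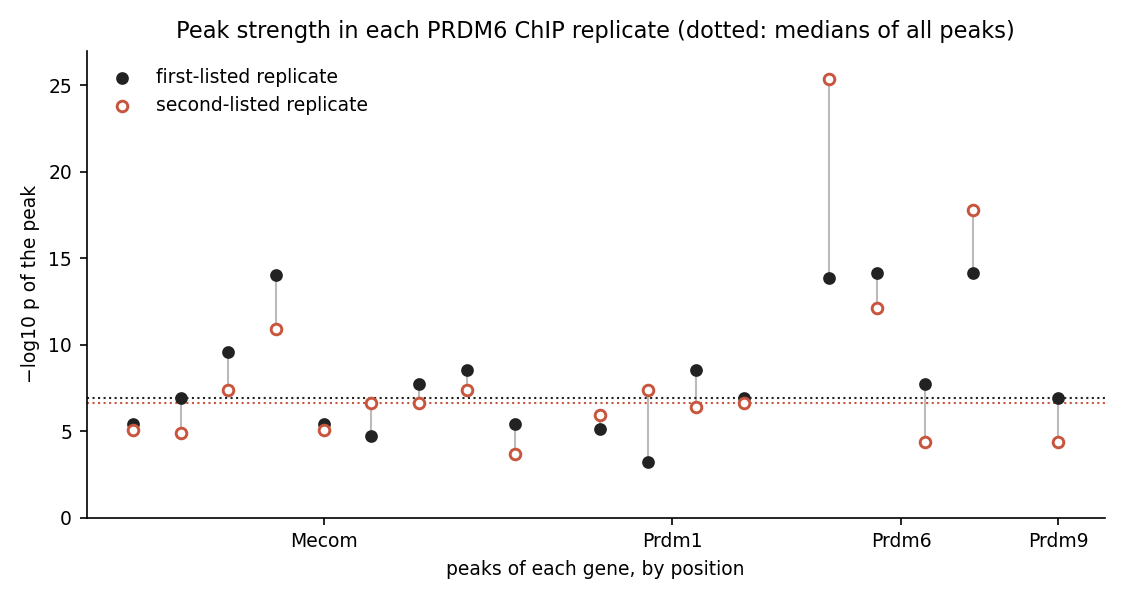
The −log10 p of the 18 peaks (vertical axis) in the first-listed (black) and second-listed (open red) PRDM6 ChIP replicate, by gene and position, with a grey line joining the values of 1 peak. Dotted lines mark the medians of all 13977 peaks, 6.92 and 6.61, and 3 of the 4 Prdm6 peaks lie above 12 in both replicates.

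Prdm6 encodes the protein that was precipitated. Its gene lies on the forward strand (GRCm38, chr18:53463583-53575907) and its full transcript has 7 exons. The strongest peaks of the family were on exons 1, 2 and 5 of this transcript, and the fourth peak of the gene was a weak one in an intron.

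The peak in exon 1 (chr18:53464551-53465118) had a −log10 p of 13.8 in the first-listed and 25.4 in the second-listed replicate, and its score was 831. The peak in exon 2 (chr18:53473445-53473718) had values of 14.2 and 12.1 and a score of 588. The peak in exon 5 (chr18:53552058-53552367) had values of 14.2 and 17.8 and a score of 792. All 6 values were above the highest −log10 p that any peak of Prdm1 or Prdm9 had in either replicate, and only the value of 14.0 of 1 Mecom peak in the first-listed replicate reached into their range. The exon 1 peak was the only peak of the family with a global IDR of at most 0.01, a limit passed by 139 peaks of the list.

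The outlines of these peaks followed the exons. The exon 1 peak covered 87.8% of the 647 bp exon, the exon 2 peak 89% of 308 bp, and the exon 5 peak 90.4% of 343 bp. The replicates were called separately, and each outlined the exons in the same manner. In exon 1 the first-listed peak covered 81.5% and the second-listed 87.8%, and in exon 2 the shares were 88.6% and 84.7%. In exon 5 they were 71.1% and 90.4%. The summits of the replicates were 99 bp apart in exon 1, 59 bp in exon 2 and 5 bp in exon 5, and the median of that gap was 121 bp over all peaks and 38 bp over the other 15 member peaks. No replicate's peak passed an exon end in any of the 3 exons.

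**Figure D3:**
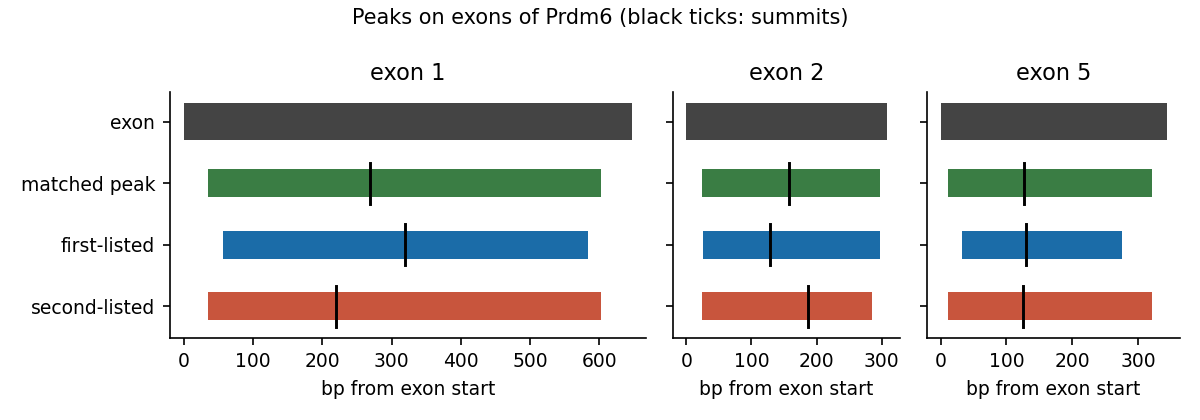
Exons 1, 2 and 5 of Prdm6 (dark bars) with the matched peak (green) and the peak of the first-listed (blue) and second-listed (red) replicate, in bp from the exon start (horizontal axis), with summits as black ticks. Every peak lies inside its exon, and the matched peaks cover 87.8%, 89% and 90.4% of exons 1, 2 and 5.

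Such an outline was rare in the list. A peak lay wholly inside 1 exon in 335 cases (2.4% of all peaks), and it also filled at least 80% of that exon in 13 cases (0.093%). These 13 peaks belonged to 11 genes, and Prdm6 was the only gene with more than 1. The 10 peaks in other genes had −log10 p-values of 3.68 to 6.92 and scores of 48 to 182, all below those of the 3 Prdm6 peaks, and 8 of the 10 were in an exon 1. They included the first exons of Eya1, Hlx, Lmo4 and Sox9, which encode transcriptional regulators of development. No exon-filling peak outside Prdm6 had a global IDR of at most 0.05. Among the 335 peaks inside an exon, 10 had such an IDR and 3 of the 10 were in Prdm6. There were 8 genes with 3 or more peaks inside exons, and in the other 7 genes all of these peaks shared 1 exon. The 80% limit was chosen after the values of Prdm6 were seen, so these counts describe how uncommon the outline was and are no test of it.

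**Figure D4:**
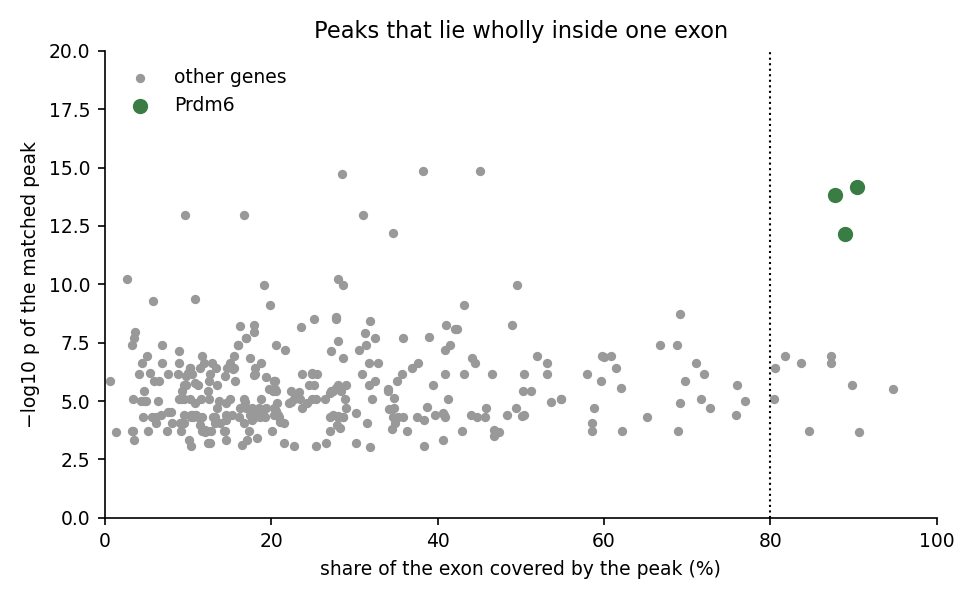
Share of the exon covered by the peak in percent (horizontal axis) against the −log10 p of the matched peak (vertical axis) for the 335 peaks that lay wholly inside 1 exon. The dotted line marks 80%, and the 3 Prdm6 peaks (green) are above 12 while the 10 peaks of other genes to the right of the line (grey) are at 6.92 or lower.

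The exons without a peak were shorter in their coding part. Exons 3, 4 and 6 measured 128 bp, 125 bp and 177 bp, and exon 7 measured 903 bp, of which 112 bp was coding. The narrowest peak of the list was 136 bp wide, so no listed peak could lie wholly inside exon 3 or exon 4. The exons with a peak held 595 bp, 308 bp and 343 bp of coding sequence. The Prdm6 peaks inside exons were also GC rich, with 78.1% GC around the summit in exon 1, 71.6% in exon 2 and 55.7% in exon 5, and the median of all peaks was 43.8%. Other member peaks within 1 kb of a start site by the deposited annotation varied in GC content. It was 74.6% in the Mecom peak nearest its upstream start and 66.2% in the Prdm1 peak over its start. It was 66.7% in the Mecom peak at chr3:30012273-30012580. The Mecom peaks at chr3:30013016-30013702 and chr3:30014143-30014573 had 47.3% and 43.3%. The Prdm1 peak at chr10:44457432-44458001 had 36.3%.

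The background under these 3 peaks also differed from that under most others. The peak caller computes a p-value from a genome-wide background unless the background nearby is higher, so a p-value that is not in the series of the genome-wide background rested on a higher local one. All 3 Prdm6 exon peaks were off the genome-wide series in both replicates. Of all peaks, 17.2% were off it in both replicates, as were 17.5% of the 538 peaks of chromosome 18, 16.4% of the 335 peaks inside an exon and 11.1% of the 405 peaks that reached 12 in both replicates. Of the other 15 member peaks, 1 was off the series in both. The peaks of exons 2 and 5 also shared the value of 14.1673 in the first-listed replicate to the last digit given, and these 2 were the only peaks of the list with it. The local background rests on the Input reads, which all came from cells that carried the virus. The sequence of the FLAG-tagged insert was not analysed here.

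The fourth Prdm6 peak (chr18:53537867-53539206) was the weakest. It lay in intron 3, 1127 bp from exon 3 and 991 bp from exon 4, had a −log10 p of 7.71 and 4.39 and the lowest score of 48. Its summits were 23 bp apart, and both values were on the genome-wide series, with heights of 15 and 10 fragments. The deposited annotation placed all 4 Prdm6 peaks within 3 kb of a transcription start site (TSS). For the exon 1 peak this was the start of the full transcript, and for the other 3 it was that of a transcript that begins inside the gene. In the basic gene set the nearest TSS was 8929 bp from the exon 2 peak, 73351 bp from the intron peak and 86739 bp from the exon 5 peak. For the exon 5 peak it was the start of another gene, AC116597.1, so by the nearest TSS Prdm6 kept 3 of its 4 peaks. The promoter label of the exon 2, intron and exon 5 peaks thus rests on the choice of transcripts.

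Mecom encodes zinc finger transcription factors that maintain hematopoietic stem cells, and it makes a long form (MDS1-EVI1), which carries the PR domain, and a short form (EVI1), which lacks it. Its 9 peaks all lay inside the gene body (GRCm38, chr3:29951296-30548008, reverse strand). Of 4379 protein-coding genes with a peak, 4.34% had 9 or more. At the mean density of chromosome 3 a stretch of this length held 3.75 peaks.

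The peaks of Mecom fell into 3 places. A group of 3 lay within 1 kb of the RefSeq start of the short form, at 30013204. The peak that spanned this start (chr3:30013016-30013702) had a −log10 p of 6.92 and 4.91, and the peak 624 bp downstream (chr3:30012273-30012580) had 5.42 and 5.10. The peak 939 bp upstream (chr3:30014143-30014573) was the strongest of the 3, with 9.57 and 7.42 and a score of 203. The same interval also lies in the antisense gene Mecomos, and ChIP-seq peaks carry no strand, so the peaks cannot be given to one of the pair. By contrast, the start of the long form at 30509759 had 1 weak peak, 1176 bp downstream (chr3:30508203-30508583), with values of 5.42 and 3.71 and heights of 12 and 9 fragments.

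The other 5 Mecom peaks lay in the intron between both starts, 92.2 to 230 kb upstream of the short form. The basic gene set has other Mecom starts nearer to them, at 4198 to 34062 bp. The strongest (chr3:30105408-30106361) had a −log10 p of 14.0 in the first-listed and 10.9 in the second-listed replicate, higher than 95.0% of all peaks. Its score of 506 was just under the 540 of a global IDR of 0.05, and its summits were 29 bp apart. A second peak stood beside it (chr3:30106537-30106945) with values of 5.42 and 5.10. The remaining 3 had values of 4.71 and 6.61 (chr3:30121980-30122145), 7.71 and 6.61 (chr3:30144621-30145412) and 8.52 and 7.42 (chr3:30243135-30244409). In Mecom the first-listed replicate was the higher in 8 of 9 peaks, beside the 52.1% of all peaks, and in the other 3 genes it was the higher in 5 of 9. The median of the matched Mecom values was 5.10.

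Prdm1 encodes BLIMP1, the repressor that drives plasma cell differentiation and the specification of germ cells. Its 4 peaks formed 2 pairs, 1 at the RefSeq start at 44458748 and 1 far upstream, and the gene lies on the reverse strand (GRCm38, chr10:44437177-44528501). The peak over the start (chr10:44458440-44458926) had a −log10 p of 3.21 in the first-listed and 7.42 in the second-listed replicate. Its neighbour 747 bp downstream (chr10:44457432-44458001) had values of 5.14 and 5.95, with summits 375 bp apart in the replicates. Both had the lowest score, and the replicates differed most for the peak over the start.

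The upstream pair had the higher matched values, but in the second-listed replicate the peak over the start was the highest of the 4. The peak at chr10:44722927-44723658 had values of 8.52 and 6.39 and a score of 148, and it lay 264 kb upstream of the RefSeq start and 194.4 kb upstream of the TSS that the deposited annotation used. The peak at chr10:44744302-44744596 had values of 6.92 and 6.61, heights of 14 and 13 fragments and a score of 145, and its summits were 38 bp apart. Other genes were closer to both. The start of the noncoding gene Gm47392 was 7282 bp from the first, and that of 4930431F10Rik was 5402 bp from the second, which lay in an intron of Gm47392. With the nearest TSS of the basic gene set, Prdm1 kept 2 of its 4 peaks.

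**Figure D5:**
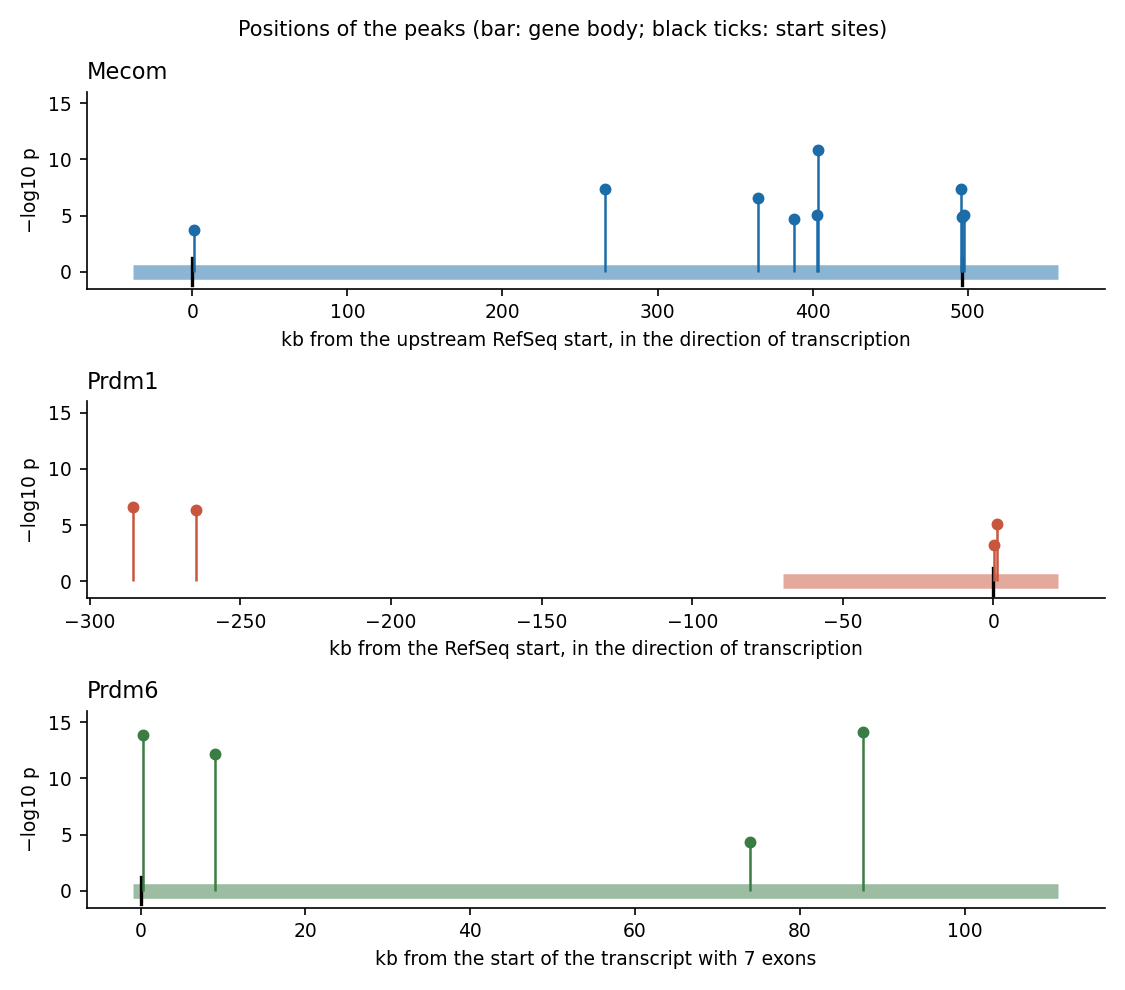
Summits of the peaks of Mecom, Prdm1 and Prdm6 as vertical lines, with the −log10 p of the matched peak (vertical axis) by distance in kb in the direction of transcription (horizontal axis). Bars are gene bodies and black ticks are start sites, and the strongest Mecom peak (10.9) lies between its starts while the Prdm6 peaks of exons 1, 2 and 5 (13.8, 12.1 and 14.2) spread over the gene.

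Prdm9 encodes the histone methyltransferase that places meiotic recombination hotspots in germ cells. Its single peak (chr17:15585316-15585628) lay 20962 bp upstream of the TSS, with a −log10 p of 6.92 and 4.39, heights of 14 and 10 fragments and the lowest score. The start of Gm7450 was closer, at 8165 bp, so with the nearest TSS of the basic gene set Prdm9 had no peak.

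The 5 members without a peak differed in how far the nearest peak was. Distances are from the start sites of the basic gene set, not from the gene ends. Prdm16 encodes a factor that directs brown fat development, and its start was 486 kb from the nearest peak. The gene spans 321 kb. At the mean density of chromosome 4 a stretch of that length held 1.21 peaks, and 63.3% of 30 genes longer than 300 kb on this chromosome had a peak. Prdm2, which encodes the methyltransferase RIZ1, was farther still, at 1646891 bp from the nearest peak, which was assigned to Spen. Prdm8, a partner of the neuronal factor BHLHE22, was 136214 bp away. The nearest peaks to Prdm10 and Prdm4 were at 76077 bp (assigned to Aplp2, score 330) and 46015 bp (assigned to Rtcb, score 174). Another 6 genes of the family, Prdm11, Prdm12, Prdm13, Prdm14, Prdm15 and Zfp408, had no assigned peak. Thus 4 of these 15 genes had one, beside 20.1% of all protein-coding genes. Prdm12, Prdm13, Prdm14 and Zfp408 were shorter than 30 kb, where 10.7% of all genes had a peak. Prdm15 measured 60.4 kb and Prdm11 81.0 kb.

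Counted by place, 10 of the 18 peaks lay within 3 kb of a TSS by the deposited annotation, and 21.3% of all peaks did. The 10 included the 4 Prdm6 peaks, 4 of Mecom and 2 of Prdm1. An exon of any gene was touched by 6 of the 18 peaks, the 3 of Prdm6, 2 of Mecom and 1 of Prdm1, and by 14.1% of all peaks.

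Sequence under the summits was searched for 3 motifs on both strands within 100 bp. These were TGACTCA, the element of the AP-1 factors, GGAATG, that of the TEAD factors, and TTTCAT or TTTCCT, and no motif overlapped another in the member peaks. AP-1 was found in 1 of the 18 peaks, and in 14.3% of all peaks. TEAD was found in 1, and in 19% of all peaks. TTTCAT or TTTCCT was found in 3, and in 43.1% of all peaks. None of the 4 Prdm6 peaks held any of them. The counts are small, and no match says only that these letters were not in the window.

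The AP-1 and TEAD matches were both in the upstream pair of Prdm1. The GRCm38 forward strand around the summits, 201 bases each, is printed to show them, with the motifs in capitals. The first window has 2 AP-1 matches, 65 bp and 14 bp from the summit, and the second has 1 TEAD match, 5 bp from the summit.
Prdm1 upstream, chr10:44723412-44723612: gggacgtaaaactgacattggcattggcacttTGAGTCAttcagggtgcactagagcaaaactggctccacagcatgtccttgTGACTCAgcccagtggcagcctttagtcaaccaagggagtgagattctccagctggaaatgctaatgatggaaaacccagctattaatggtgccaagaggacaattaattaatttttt
Prdm1 upstream, chr10:44744321-44744521: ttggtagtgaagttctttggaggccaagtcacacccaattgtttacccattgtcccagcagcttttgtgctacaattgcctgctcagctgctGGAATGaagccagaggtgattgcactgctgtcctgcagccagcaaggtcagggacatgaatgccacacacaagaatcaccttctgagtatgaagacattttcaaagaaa

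In Mecom the strongest peak held TTTCCT on the reverse strand, 60 bp from the summit, and the peak farthest upstream in the intron held TTTCAT 86 bp from its summit. The window of the strongest peak is printed in the same way, with the reverse complement of TTTCCT in capitals, because it was the strongest member peak outside the Prdm6 gene.
Mecom intron, chr3:30105983-30106183: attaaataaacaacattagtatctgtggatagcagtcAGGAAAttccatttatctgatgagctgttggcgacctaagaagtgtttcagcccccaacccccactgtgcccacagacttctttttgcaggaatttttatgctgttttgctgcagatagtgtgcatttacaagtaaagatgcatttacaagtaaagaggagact

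The start of Prdm1 was overlapped by a peak, and the promoter before it holds no annotated exon. The 250 bases before the RefSeq start (RefSeq, GRCm38.p6, chr10:44458749-44458998, reverse strand) are given with the 178 bases under the peak in capitals. None of the 3 motifs was in these bases. Among 32851 RefSeq promoters of 250 bases before and 50 after the start, AP-1 was in 5.2%, TEAD in 14.7% and TTTCAT or TTTCCT in 38.9%. A RefSeq promoter was found for 7 of the 9 members.
Prdm1 promoter, chr10:44458749-44458998: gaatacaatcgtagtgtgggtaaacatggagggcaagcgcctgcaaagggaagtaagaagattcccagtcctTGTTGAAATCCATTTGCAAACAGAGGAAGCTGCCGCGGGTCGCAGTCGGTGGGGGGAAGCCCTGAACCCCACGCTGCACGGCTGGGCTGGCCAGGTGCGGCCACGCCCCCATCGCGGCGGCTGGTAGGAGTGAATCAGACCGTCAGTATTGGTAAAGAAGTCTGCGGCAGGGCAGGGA

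Co-factors through which PR domain proteins act on chromatin were examined as a list of 10 genes, of which 4 had a peak, beside 20.1% of all protein-coding genes. Ctbp2, which encodes a co-repressor, had 3 peaks, and the strongest lay inside the gene (chr7:133088726-133090154) with a −log10 p of 12.03 and 13.05 and a score of 515. Ehmt1, which encodes the methyltransferase GLP, had 4 peaks, and the 1 nearest the TSS had values of 12.03 and 6.61 and lay 1974 bp away. Hdac2, which encodes a histone deacetylase, had 3 peaks, all outside the gene and 36678 to 112031 bp from the TSS. Ep300, which encodes an acetyltransferase, had 1 peak at its start with values of 5.12 and 5.67. Ehmt2, Hdac1, Hdac3, Ctbp1, Kdm1a and Prmt5 had none. Gene length again went with the peaks. Of the 6 co-factor genes shorter than 30 kb, 1 (Hdac2) had a peak, beside 10.7% of all such genes. No share was counted for the lengths of the other 3 with a peak, which measured 66.7 kb (Ep300), 130 kb (Ehmt1) and 137 kb (Ctbp2), and Kdm1a, with none, measured 52.2 kb. Of 7 SMC marker genes, Acta2 had 3 peaks and Mylk had 1, whereas Tagln, Myh11, Cnn1, Actg2 and Smtn had none. The gene body of Mylk held 2 peaks, of which 1 was assigned to Mylk, and the gene body of Acta2 held 1. Acta2 was 1 of 5 markers shorter than 30 kb, where 10.7% of all genes had a peak, and Mylk, at 257 kb, was the longest marker. The files hold no expression values, so the identity of the cells could not be checked from them.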

How the data were processed

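Sequenced libraries were those of 4 samples, 2 PRDM6 ChIP and 2 Input. Per the study's methods, the authors trimmed and filtered paired reads of 151 bp, aligned them to mm10 with BWA (mapping quality of at least 13) and called peaks with MACS2 against the matching Input (p-value limit, 0.001). They matched the replicates by IDR and annotated the result; the annotation tool and the versions are not given in the sources used here. The deposited peak list gives a score, which scales the global IDR, and −log10 p-values of MACS2 per replicate, which fall where the local background is high. Its signal and q-value columns held a placeholder, and the q-value column of the annotation repeated the second-listed −log10 p. The deposited annotation also gives distances to the TSS from the transcripts it used.

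Rows were taken by gene symbol. Gene shares were counted over protein-coding genes in GENCODE M21 (mouse, basic set), and 277 peaks without an Ensembl identifier were left out of them. A peak was inside an exon if all its bases were. Heights in fragments came from Poisson tails, where a value within 0.0002 of a tail counted as on the genome-wide series (58.3% and 63.5% of values). Genome sequence was GRCm38.p6, and GC content and motifs were read within 100 bp of the summit. Coordinates are written from 1. Tools were pysam 0.24.0, SciPy 1.17.1, pandas 2.3.3, NumPy 2.4.6 and matplotlib 3.10.9 under Python 3.11.15. The genes named are the 9 members with every peak, 6 other family genes, and lists of co-factors and SMC markers. Members and lists were chosen with earlier results of these data known. A family gene of the planned list is not reported here. No test was run, since the list holds no values per group. Alternatives were IDR limits, gene assignments, distance limits, exon criteria, motif windows and each replicate alone.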

Additional observations from a re-analysis of the deposited data

How the results depend on the processing

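No paired analysis was possible because the deposited list gives no value for the Input samples and does not tie its replicate columns to sample numbers. Of 30 alternatives, 19 gave a count within 1.5 times the reported one or a median within 1 SD, taken over the medians of both replicates, of the reported one. With a global IDR of at most 0.05, 1 member had a peak, 3 peaks remained assigned to members, and 0 of these held an AP-1 or TEAD motif. At a global IDR of at most 0.01, 1 peak was left. With the nearest TSS of the basic gene set, 3 members and 13 peaks were counted. Member peaks in exons numbered 6 when the summit had to lie in an exon and 6 with any overlap. Exon-filling peaks numbered 1 at a share of 90%, and 2 to 3 with the bounds of 1 replicate, alternatives chosen after seeing the data. With 200 bp around the summit, 5 peaks held an AP-1 or TEAD motif, and 2 to 3 did with the summit of 1 replicate. The median −log10 p was 6.61 to 7.31 with 1 replicate, whose values are higher by construction since the reported value is the smaller of the pair, and 6.39 without Mecom. The causes of the other shifts were not tested. Some member peaks rested on few fragments, such as that of Mecom nearest its upstream start with 12 and 9, and the effect of depth was not tested.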

Other observations

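The 10 peaks outside Prdm6 that filled at least 80% of an exon were chosen after their values were seen. The highest share was 94.8%, in exon 1 of Eya1, with a −log10 p of 5.53 in the first-listed and 9.10 in the second-listed replicate. The exon 1 peak of Hlx covered 90.7% and had values of 11.3 and 3.68. The others were in exon 1 of Lmo4, Ppp2r2a, Tvp23bos, Mob1a, Sox9 and Stxbp6, in exon 11 of Strn3 (89.8%) and in exon 2 of Hoxa2 (80.6%).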
